A study of Arabidopsis thaliana with 12 samples.

Results

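The genes described here are 50 Arabidopsis thaliana genes of the cell cycle and of DNA replication, out of the 20114 genes listed for every genotype of the study. They were chosen by gene ID for what their products do: the sliding clamp PCNA, the MCM helicase, the factors that license replication origins, ribonucleotide reductase, the cyclins of types A, B and D, the cyclin-dependent kinases (CDKs), the E2F factors and RBR1, the CDK inhibitors, KNOLLE, CDC20.1 and WEE1. All 50 were listed in every genotype. By textbook function 15 act in S phase, when DNA is copied (PCNA, MCM, licensing factors, ribonucleotide reductase), 15 act in G2 and mitosis, G2/M for short (CYCA1;1, the B-type cyclins, the B-type CDKs, KNOLLE, CDC20.1), and 20 were left outside these classes.

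Transcript levels were measured by polyA RNA sequencing of whole untreated seedlings aged 7 days, grown in long days on plates with sucrose. The 12 libraries fell into 4 groups of 3: trb45 line 1 and trb45 line 2, made independently and mutant in TRB4 and TRB5, the trb123 triple mutant of TRB1, TRB2 and TRB3, and WT plants of the Col-0 accession. The TRB proteins are telomere repeat binding proteins, and the study set out to learn what TRB4 and TRB5 do. The labels give neither the alleles nor how the lines were made, and they do not say that replicates came from separate cultures, so the p-values measure the spread between these samples, which may be technical.

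A dividing plant cell licenses its origins in G1, copies its DNA in S phase and separates the copies in mitosis. D-type cyclins with CDKA;1 phosphorylate RBR1, the retinoblastoma homologue, which releases E2F factors to activate S-phase genes, while MYB3R factors act through a short promoter element, the MSA element, on many G2/M genes. The KRP and SIM/SMR proteins inhibit CDKs, and SIM and SMR1 are known from the switch to endoreduplication, in which leaf cells copy their DNA without dividing.

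Promoter letters are shown first, because they differ between S-phase and G2/M genes and use no expression value. Each window runs from 250 bases before to 50 bases after the annotated gene start in the RefSeq TAIR10.1 assembly, read 5′ to 3′ on the gene's own strand. Capitals mark, on either strand, the E2F letters (TTTCCCGC, TTTGGCGC, TTTGCCGC or TTTCGCGC), the MSA core (CCAACGG) or the telobox (AAACCCTA, the plant telomere repeat letters that TRB proteins are known to bind). No marked stretch overlaps another motif in the windows printed. MCM5 (AT2G07690, chr2:3527451-3527750, minus strand) and RNR1 (AT2G21790, chr2:9293011-9293310, plus strand) stand for S-phase genes with E2F letters, PCNA1 (AT1G07370, chr1:2262787-2263086, plus strand) for a telobox, and CYCB1;2 (AT5G06150, chr5:1861654-1861953, minus strand) and KNOLLE (AT1G08560, chr1:2710951-2711250, minus strand) for G2/M genes with the MSA core.
MCM5: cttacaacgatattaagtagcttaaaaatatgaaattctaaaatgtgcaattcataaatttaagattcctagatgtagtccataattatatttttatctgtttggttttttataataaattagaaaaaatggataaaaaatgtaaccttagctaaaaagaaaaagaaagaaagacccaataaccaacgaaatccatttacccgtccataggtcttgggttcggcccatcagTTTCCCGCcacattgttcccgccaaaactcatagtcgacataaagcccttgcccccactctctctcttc
RNR1: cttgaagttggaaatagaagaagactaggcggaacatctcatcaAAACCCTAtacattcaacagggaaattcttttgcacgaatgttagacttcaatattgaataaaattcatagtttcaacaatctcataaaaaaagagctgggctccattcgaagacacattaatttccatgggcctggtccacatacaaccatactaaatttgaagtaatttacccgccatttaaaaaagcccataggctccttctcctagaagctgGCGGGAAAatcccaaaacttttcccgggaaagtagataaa
PCNA1: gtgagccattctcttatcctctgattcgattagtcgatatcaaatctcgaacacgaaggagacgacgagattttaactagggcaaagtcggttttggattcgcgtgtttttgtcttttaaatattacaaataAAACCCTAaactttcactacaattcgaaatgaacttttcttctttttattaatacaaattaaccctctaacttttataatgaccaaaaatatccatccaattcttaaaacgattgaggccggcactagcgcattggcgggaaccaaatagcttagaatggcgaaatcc
CYCB1;2: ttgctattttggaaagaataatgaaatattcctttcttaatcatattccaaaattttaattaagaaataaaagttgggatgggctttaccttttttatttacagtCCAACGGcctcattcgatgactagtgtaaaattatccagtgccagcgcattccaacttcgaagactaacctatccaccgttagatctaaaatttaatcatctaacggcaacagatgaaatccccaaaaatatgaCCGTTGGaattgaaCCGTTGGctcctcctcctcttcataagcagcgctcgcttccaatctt
KNOLLE: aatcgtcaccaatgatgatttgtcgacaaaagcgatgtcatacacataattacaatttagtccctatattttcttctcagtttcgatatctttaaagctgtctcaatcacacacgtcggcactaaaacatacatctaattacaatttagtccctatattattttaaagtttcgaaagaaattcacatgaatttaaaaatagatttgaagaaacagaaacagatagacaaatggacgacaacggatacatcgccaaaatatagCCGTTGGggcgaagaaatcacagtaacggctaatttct

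E2F letters were found in 8 of 15 S-phase windows (53.3%): MCM2, MCM3, MCM4, MCM5, MCM6, ORC1A, ORC2 and RNR1. They were found in 0 of 15 G2/M windows and in 1.76% of all 27443 protein-coding windows of the same length. The MSA core was found in 8 of 15 G2/M windows (53.3%), namely 7 B-type cyclins and KNOLLE, in 1 S-phase window (ORC2) and in 1.85% of all windows. A telobox was found in 3 of 50 members, PCNA1, RNR1 and CDKB1;2, which is 6% against 6.22% of all windows. A match describes letters only, and a window without a match says nothing about the factor.

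**Figure D1:**
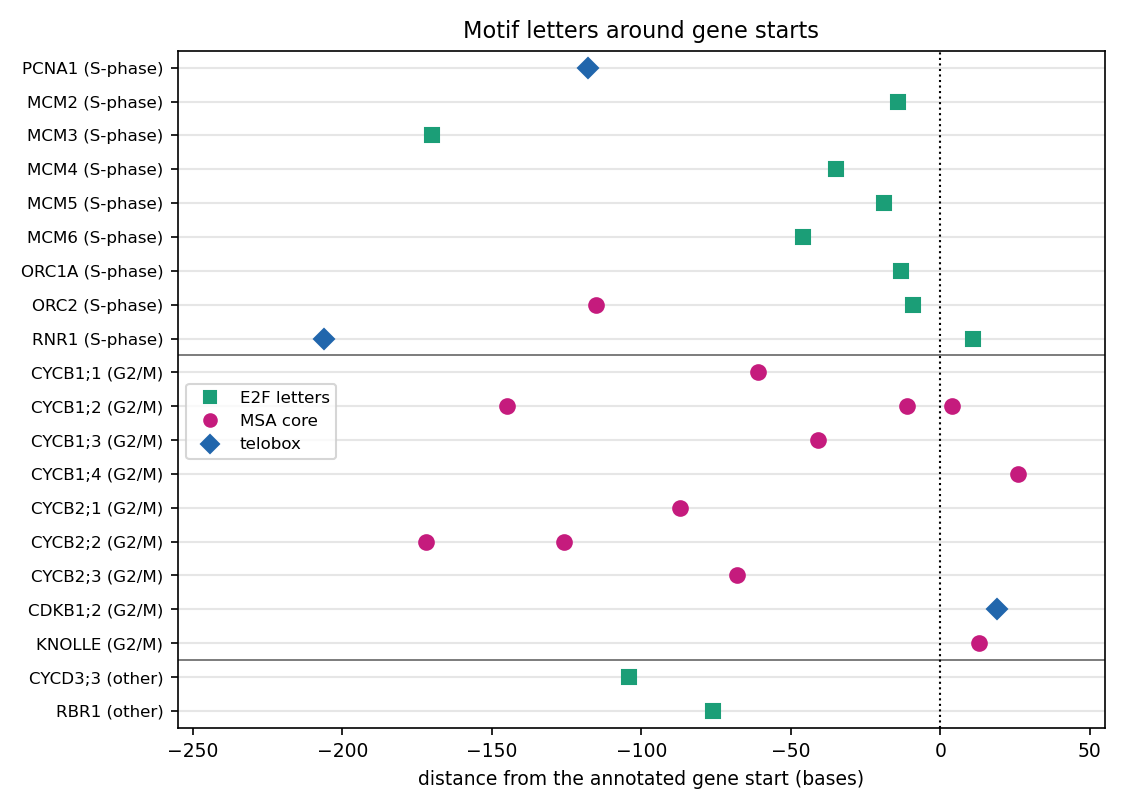
Position of each motif match in bases from the annotated gene start (dotted line at 0), for every member with a match. Squares are E2F letters, circles the MSA core and diamonds the telobox. Squares lie in S-phase genes apart from CYCD3;3 and RBR1, and circles lie in G2/M genes apart from ORC2.

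Levels are the authors' FPKM, fragments per kilobase of gene, scaled to library size. The sums of FPKM per library lay between 628600 and 654202, and steps in the low values put the depth at about 22600000 to 24300000 fragments per library. The targeted genes followed the labels. TRB4 stood at 2.96 to 5.34 FPKM in line 1 and 4.45 to 6.1 FPKM in line 2, against 8.16 to 11.04 FPKM in WT, and TRB5 at 2.85 to 3.51 FPKM in line 1 and 2.96 to 3.3 FPKM in line 2, against 11.04 to 12.5 FPKM in WT. In trb123 the levels were 0.65 to 0.99 FPKM for TRB1, 1.2 to 2.01 FPKM for TRB3 and 2.52 to 3.12 FPKM for TRB2, against at least 9.76, 6.34 and 10.5 FPKM in WT. A change is given as a difference in mean log2(FPKM + 1) with the standard error (SE) of limma's fit; the added 1 shrinks the change of low genes. A gene was called at a limma adjusted p under 0.05 over the 18700 genes tested, those with 1 FPKM or more in 3 or more libraries. The filter kept 48 of the 50 members, and 3 libraries stood in every group.

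The libraries also divide in a way the labels do not name. In line 1, replicate 3 was lower than both other replicates by at least 1 on the log2 scale at 226 genes. On a scale where line 1 replicates 1 and 2 lie at 0 and replicate 3 at 1, the median position of these genes was 0.93 to 0.99 in line 2 and 0.86 to 0.9 in trb123, against -0.02 to 0.02 in WT. All trb123 and line 2 libraries thus lie on one side and all WT libraries on the other, so this division and those 2 comparisons with WT cannot be told apart except through line 1. The comparison of line 2 with trb123 lies within one side, and that of line 1 replicates 1 and 2 with WT within the other. A term for this split, chosen with the split known, was added to the fit. For the members, a value with it stands beside each comparison with WT whose call it ends. The term is estimated from line 1 alone, and some calls end with it although the change is no smaller. For line 1 against WT the term amounts to leaving out line 1 replicate 3, so these are not separate checks. Among the members, KRP1 alone belongs to the 226 genes.

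Most S-phase genes were called higher in trb123 than in WT. That count fell to 1 once the split was fitted, as calls over all genes fell from 59.4% to 28%. The S-phase median went from 0.64 to 0.45. In line 1, 4 of 15 G2/M genes were called lower. Of the 14 S-phase members tested, 11 rose and 1 fell in trb123 (median change 0.64), beside 33.9% higher and 25.5% lower among all genes tested. In line 2, 4 rose and 2 fell (median 0.15), beside 14.9% higher and 15.6% lower among all genes. In line 1, 1 rose and 1 fell (median -0.17), beside 7.77% higher and 10.4% lower among all genes. All of these are against WT. Of the 15 G2/M members, 1 rose and 2 fell in trb123 (median 0.01), limma called 0 in line 2 (1 at an unadjusted p under 0.05, median 0.01), and 0 rose and 4 fell in line 1 (median -0.46). Over all genes tested the medians were 0.07 in trb123, 0.01 in line 2 and -0.05 in line 1. Fitted with a term for the split, 1 S-phase member rose and 0 fell in trb123 (CDC6A), limma called 0 in line 2 (2 at an unadjusted p under 0.05), and 1 rose and 2 fell in line 1. Of the G2/M members, 0 rose and 2 fell in trb123, limma called 0 in line 2 (1 at an unadjusted p under 0.05), and 0 rose and 7 fell in line 1. Among all genes, the fit with the term called 16.8% higher and 11.2% lower in trb123. It called 0.433% and 0.246% in line 2, and 7.56% and 10% in line 1. The S-phase median was 0.45 in trb123, -0.16 in line 2 and -0.22 in line 1 with the term, and the G2/M median was -0.19 in trb123, -0.26 in line 2 and -0.56 in line 1. In whole seedlings, fewer dividing cells and less RNA per cell cannot be told apart.

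Library by library, the median difference of the S-phase genes from the WT mean was -0.11, -0.4 and 0.02 in line 1, 0.21, -0.07 and 0.32 in line 2, and 0.67, 0.67 and 0.61 in trb123, against -0.06, -0.04 and 0.07 in WT. For the G2/M genes it was -0.45, -0.7 and -0.26 in line 1, 0, -0.33 and 0.34 in line 2, and -0.01, 0.04 and -0.1 in trb123, against -0.02, -0.12 and 0.14 in WT. The trb123 libraries lie close together, while those of either trb45 line are spread, and in both lines replicate 2 is the lowest for both classes. The S-phase value minus the G2/M value varied less within a line. It was 0.34, 0.3 and 0.28 in line 1, 0.21, 0.26 and -0.02 in line 2, and 0.68, 0.63 and 0.71 in trb123, against -0.04, 0.08 and -0.07 in WT. It was above every WT library in all libraries of line 1 and trb123 and in 2 of 3 libraries of line 2.

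**Figure D2:**
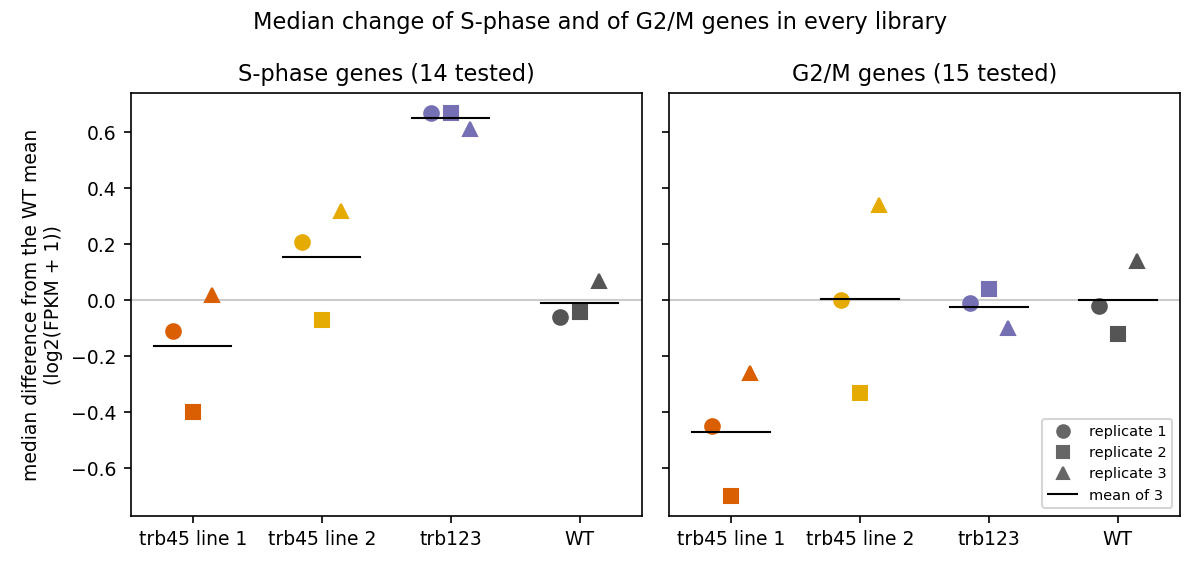
Median over the 14 tested S-phase genes (left) and the 15 G2/M genes (right) of each library's difference from the WT mean, in log2(FPKM + 1). Points are libraries, shaped by replicate, and lines the mean of 3. The S-phase medians of trb123 (0.61 to 0.67) lie above every other library, and the G2/M medians of line 1 (-0.7 to -0.26) lie below every WT library.

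Calls over all members are set beside the share of all genes called. In trb123, 26 of 48 members (54.2%) were called against WT, with 59.4% called among all genes, so the total is not a result about these genes. Higher calls made up 41.7% of members against 33.9% of all genes, and lower calls 12.5% against 25.5%. In line 1, 13 of 48 (27.1%) were called against 18.2% of all genes, of which lower calls were 22.9% against 10.4% and higher calls 4.17% against 7.77%. In line 2, 10 of 48 (20.8%) were called against 30.5% of all genes, with 5 higher (10.4% against 14.9%) and 5 lower (10.4% against 15.6%). These 3 comparisons share the WT libraries. Libraries of a mutant lay wholly above WT at 3 members and wholly below at 21 in line 1 (13.4% and 20.4% of all genes), at 7 and 7 in line 2 (25.4% and 24.4%), and at 27 and 10 in trb123 (39.6% and 30.6%). Under median-ratio scaling the balance of calls over all genes in line 1 turned to 1833 higher and 1454 lower, against 1453 and 1944 in the main fit, while the members gave 2 higher and 10 lower, against 2 and 11.

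**Figure D3:**
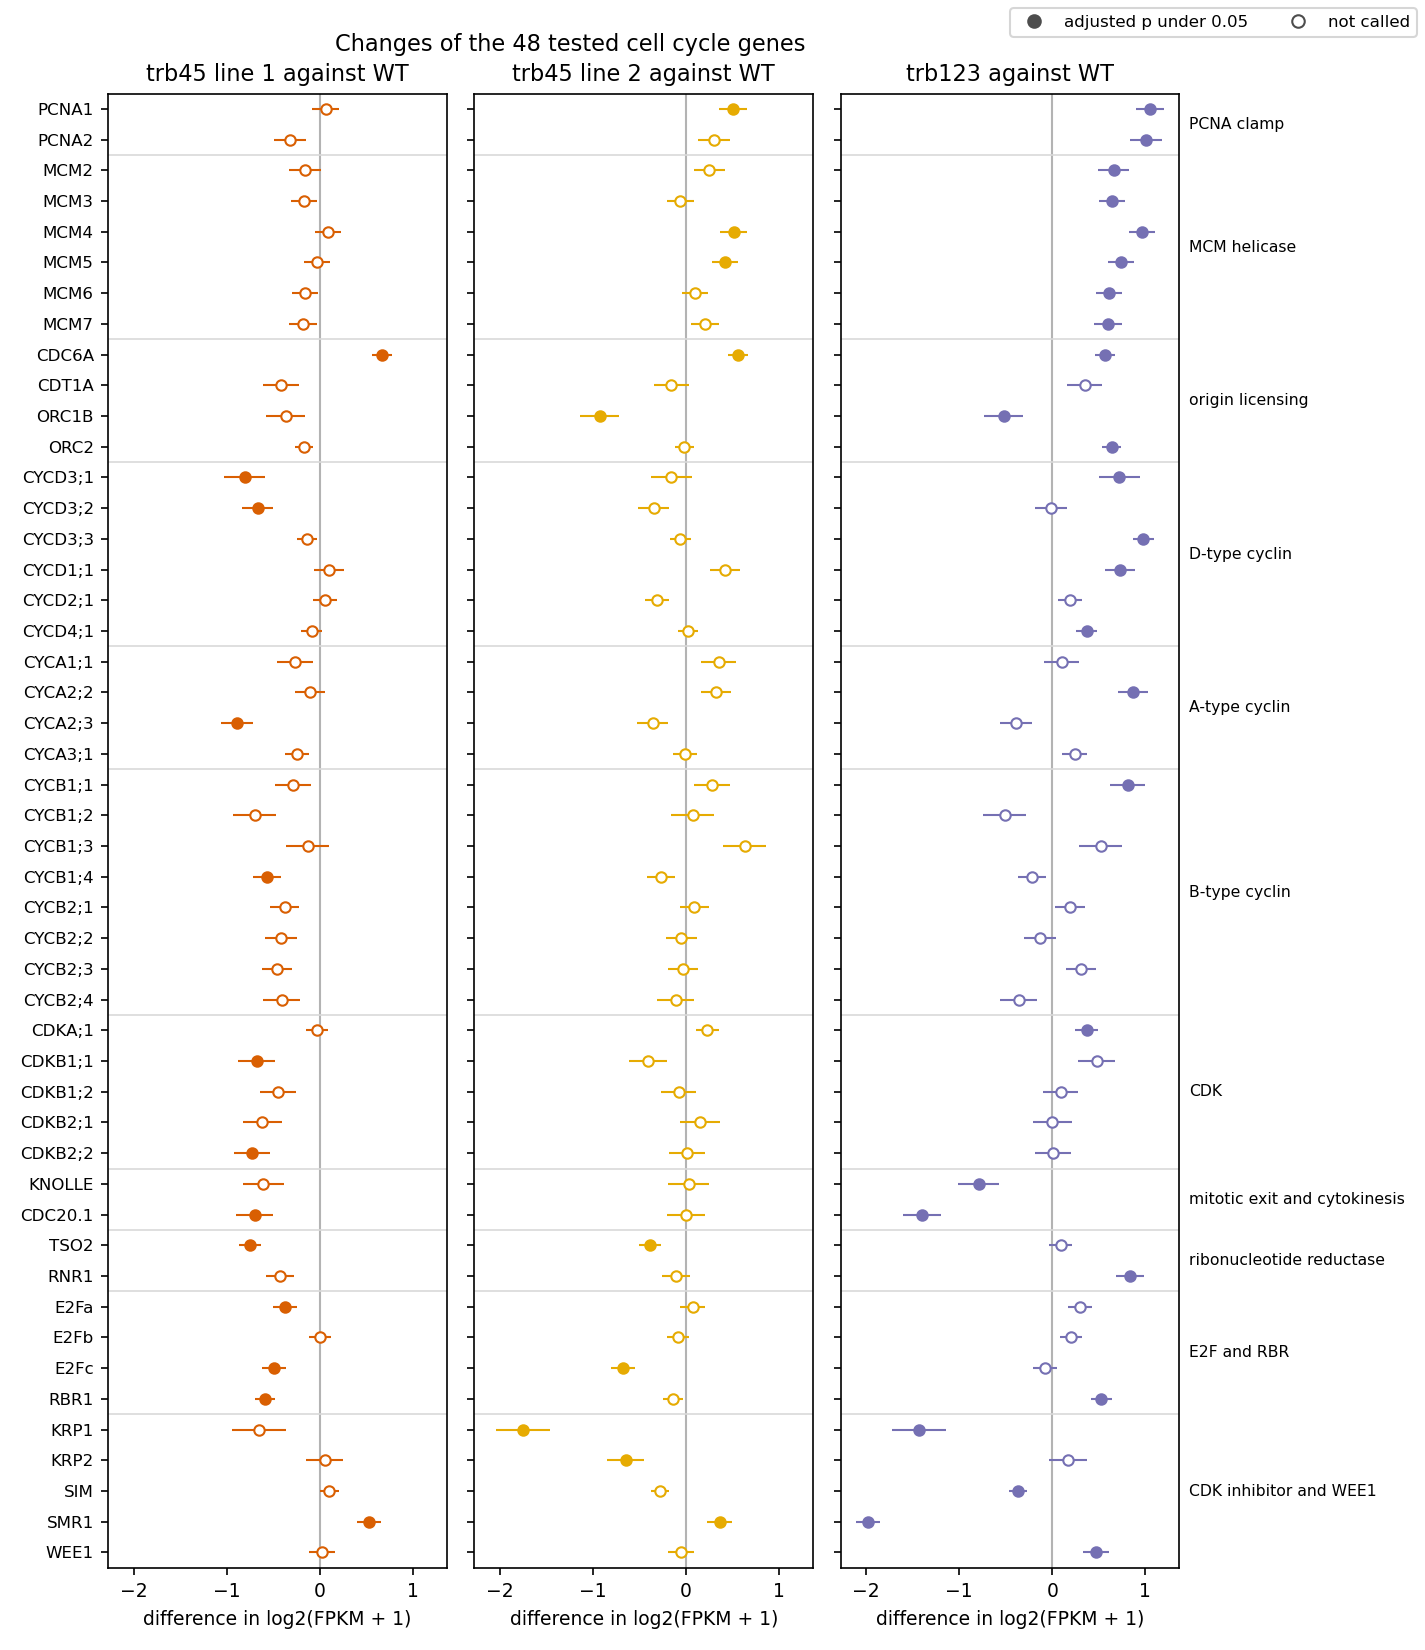
Change of each tested member against WT on the log2(FPKM + 1) scale, for line 1, line 2 and trb123, with bars of 1 SE from limma and members ordered by role. Filled points are called at an adjusted p under 0.05. In trb123 both PCNA and all 6 MCM points are filled and right of 0, and in line 1 no G2/M gene lies right of 0.

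The clamp genes PCNA1 and PCNA2 encode the ring that holds DNA polymerases on the template. PCNA1 had 4.67, 4.77 and 7.66 FPKM in line 1, 8.84, 6.54 and 8.64 FPKM in line 2, and 12.01, 11.2 and 13.01 FPKM in trb123, against 5.2, 5.21 and 5.55 FPKM in WT. All trb123 and line 2 libraries were above WT. PCNA1 rose by 1.05 (SE 0.15, adjusted p = 8.38e-05) in trb123 and by 0.5 (SE 0.15, adjusted p = 0.0277) in line 2, and its change in line 1 was 0.06 (adjusted p = 0.827). PCNA2 had 5.14, 5.92 and 9.24 FPKM in line 1, 10.7, 9 and 12.6 FPKM in line 2, and 19.1, 18.9 and 16.2 FPKM in trb123, against 8.78, 7.67 and 8.96 FPKM in WT. It rose by 1.01 (SE 0.17, adjusted p = 0.000231) in trb123 and was not called in line 2 (0.3, adjusted p = 0.193) or line 1 (-0.32, adjusted p = 0.203). Line 1 replicate 3 is the highest of its group for both genes. Without that library PCNA2 fell by 0.54 in line 1 (adjusted p = 0.0176). PCNA2 shares 23.6% of its exon bases with AT2G29560 on the opposite strand, and whether counting used strand is not stated. With the split fitted, neither clamp gene was called in trb123 (PCNA1 0.45, adjusted p = 0.103, and PCNA2 0.36, adjusted p = 0.235). The line 2 values turned to -0.1 for PCNA1 and -0.35 for PCNA2, not called. In line 1 the term amounts to leaving out replicate 3, and PCNA2 had the same fall of 0.54 (adjusted p = 0.0177). The line 2 call of PCNA1 was lost without any 1 of line 2 replicates 1 and 3 or the WT replicates.

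The MCM genes encode the 6 subunits of the replicative helicase. All 6 rose in trb123, by 0.6 (MCM7) to 0.97 (MCM4), and in each of them every trb123 library was above every WT library. MCM4, the most abundant over all libraries, had 8.44, 6.56 and 9.65 FPKM in line 1, 12.4, 9.22 and 12.4 FPKM in line 2, and 13.7, 17.4 and 16.7 FPKM in trb123, against 7.2, 7.6 and 8.02 FPKM in WT. It rose by 0.97 (SE 0.14, adjusted p = 8.81e-05) in trb123 and by 0.51 (SE 0.14, adjusted p = 0.0189) in line 2, and changed by 0.09 (adjusted p = 0.708) in line 1. MCM5 rose in line 2 as well, by 0.42 (adjusted p = 0.0352). The other 4 subunits changed by -0.06 to 0.25 in line 2, and all 6 by -0.18 to 0.09 in line 1, with no call. None of these calls held with the split fitted: the trb123 values were then 0.04 (MCM2) to 0.64 (MCM4, adjusted p = 0.0621), and the line 2 values 0.17 for MCM4 (adjusted p = 0.799) and 0.14 for MCM5 (adjusted p = 0.846). The line 2 call of MCM4 was lost without line 2 replicate 1 or 3 or WT replicate 1, and that of MCM5 without those or WT replicate 2 or 3.

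Origin licensing factors load the helicase onto DNA, and they did not move as one. CDC6A, which helps to load MCM, had 2.96, 3.68 and 3.24 FPKM in line 1, 2.87, 3.45 and 2.62 FPKM in line 2, and 2.81, 3.3 and 2.95 FPKM in trb123, against 1.57, 1.74 and 1.79 FPKM in WT. Every mutant library was above every WT library. It rose by 0.67 (SE 0.11, adjusted p = 0.00172) in line 1, by 0.56 (SE 0.11, adjusted p = 0.00277) in line 2 and by 0.57 (SE 0.11, adjusted p = 0.000551) in trb123. It was the one member higher in all 3 comparisons, which share WT. Its change with the term for the split was 0.67 in line 1 (adjusted p = 0.00417) and 0.6 in trb123 (adjusted p = 0.0412), and 0.58 in line 2 (adjusted p = 0.219). ORC2, an origin recognition subunit, rose by 0.64 (SE 0.1, adjusted p = 0.000191) in trb123, a call lost with the split fitted (0.51, adjusted p = 0.0629).

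ORC1B, another origin recognition subunit, went the other way. It had 3.28, 2.44 and 1.01 FPKM in line 1, 1.14, 0.87 and 1.27 FPKM in line 2, and 1.78, 1.74 and 1.81 FPKM in trb123, against 2.89, 2.78 and 3.31 FPKM in WT. It fell by 0.93 (SE 0.21, adjusted p = 0.00542) in line 2 and by 0.52 (SE 0.21, adjusted p = 0.0434) in trb123, with -0.37 (adjusted p = 0.229) in line 1. Line 1 replicate 3 stands with line 2 and apart from its own group, as in the split. The line 2 value was 0 (adjusted p = 0.998) and the trb123 value turned to 0.41 (adjusted p = 0.16) with the term for the split, and without the term the call was lost when line 2 replicate 1 or any 1 of the trb123 or WT libraries was left out. CDT1A, a licensing factor, had 7.32, 4.33 and 7.2 FPKM in line 1, 9.51, 5.36 and 8.34 FPKM in line 2, and 11.4, 10.2 and 12.2 FPKM in trb123, against 8.63, 8.19 and 8.93 FPKM in WT, and was not called against WT (adjusted p = 0.135 in line 1, 0.538 in line 2 and 0.126 in trb123). ORC1A was too low to test, at 0.18 to 0.27 FPKM in line 1, 0.02 to 0.15 FPKM in line 2 and 0.15 to 0.23 FPKM in trb123, against 0.2 to 0.44 FPKM in WT. For line 2 an exact two-sided permutation test gave p = 0.1, the smallest 3 against 3 libraries allow. ORC1A shares 36.3% of its exon bases with genes on the opposite strand. Of these, AT4G14710 averaged 28.7 FPKM in line 1, 26.2 FPKM in line 2 and 24.3 FPKM in trb123, against 23.1 FPKM in WT. Its part in the ORC1A values was not tested.

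Ribonucleotide reductase makes the building blocks of DNA, and its subunits differed. TSO2, a small subunit, had 36.6, 29.2 and 42.6 FPKM in line 1, 48.7, 40.3 and 50.2 FPKM in line 2, and 64.6, 65.5 and 64.6 FPKM in trb123, against 59.6, 59.9 and 63.1 FPKM in WT. Every library of both trb45 lines was below WT. TSO2 fell by 0.75 (SE 0.12, adjusted p = 0.00197) in line 1 and by 0.39 (SE 0.12, adjusted p = 0.0321) in line 2, and changed by 0.09 (adjusted p = 0.545) in trb123. The line 2 call was lost without line 2 replicate 1 or 2 or any 1 WT replicate. It was also lost with the split fitted, though the change was then larger (-0.76, adjusted p = 0.0894). With that term the trb123 value of TSO2 turned to -0.28 (adjusted p = 0.274). RNR1, the large subunit, rose by 0.84 (SE 0.15, adjusted p = 0.00029) in trb123, and changed by -0.43 (adjusted p = 0.0584) in line 1 and -0.11 (adjusted p = 0.583) in line 2. Its trb123 call was lost with the split fitted (0.66, adjusted p = 0.074).

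D-type cyclins start the cycle in answer to hormones and sugar, and 4 of the 6 tested rose in trb123. CYCD3;3 had 6.16, 6.73 and 6.23 FPKM in line 1, 7.04, 6.1 and 7.34 FPKM in line 2, and 15, 14.3 and 15.9 FPKM in trb123, against 6.43, 6.57 and 8.56 FPKM in WT. It rose by 0.98 (SE 0.11, adjusted p = 9.62e-06) in trb123, and by 1.02 (adjusted p = 0.00284) with the term for the split, and was not called in line 1 (-0.14) or line 2 (-0.06). CYCD3;1 had 13.3, 9.35 and 15.2 FPKM in line 1, 19.8, 14.1 and 28.5 FPKM in line 2, and 40.1, 35.7 and 37.4 FPKM in trb123, against 20.8, 19.9 and 27.2 FPKM in WT. It fell by 0.81 (SE 0.22, adjusted p = 0.0225) in line 1 and rose by 0.72 (SE 0.22, adjusted p = 0.0115) in trb123, with no overlap of libraries in either case. CYCD1;1 rose by 0.73 (adjusted p = 0.00144) and CYCD4;1 by 0.37 (adjusted p = 0.0124) in trb123.

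CYCD3;2 had the highest level among D-type cyclins over all libraries and moved differently. It had 20.8, 23.2 and 20.5 FPKM in line 1, 27.5, 19.8 and 35.9 FPKM in line 2, and 38.4, 32.4 and 33.0 FPKM in trb123, against 31.6, 32.7 and 40.2 FPKM in WT. It fell by 0.67 (SE 0.17, adjusted p = 0.0185) in line 1, with -0.35 (adjusted p = 0.136) in line 2 and -0.01 (adjusted p = 0.978) in trb123. The line 1 call was lost without WT replicate 3, and that of CYCD3;1 without line 1 replicate 2 or WT replicate 1 or 3. CYCD2;1 was not called against WT. The trb123 call of CYCD4;1 was lost without WT replicate 2, and those of CYCD3;1 (0.31, adjusted p = 0.574), CYCD1;1 (0.61, adjusted p = 0.131) and CYCD4;1 (0.34, adjusted p = 0.258) were lost with the term for the split, where CYCD3;2 turned to 0.09 (adjusted p = 0.86).

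A-type cyclins act in S phase and G2. CYCA2;3, which is known to restrain endoreduplication, had 7.51, 4.55 and 7.33 FPKM in line 1, 9.76, 7.6 and 11.8 FPKM in line 2, and 9.92, 9.44 and 8.82 FPKM in trb123, against 13.4, 11.1 and 13.4 FPKM in WT. It fell by 0.89 (SE 0.17, adjusted p = 0.00464) in line 1, the largest fall among members called there, and changed by -0.36 (adjusted p = 0.125) in line 2 and -0.39 (adjusted p = 0.0656) in trb123. The line 1 and trb123 libraries did not overlap WT. CYCA2;2 rose by 0.87 (SE 0.16, adjusted p = 0.000359) in trb123 alone among the comparisons with WT, a call lost with the split fitted (0.7, adjusted p = 0.0841). CYCA3;1 was not called against WT, and CYCA2;1 was too low to test, with libraries between 0.4 and 1.14 FPKM in the mutants and 0.48 to 0.86 FPKM in WT.

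B-type cyclins with B-type CDKs drive entry into mitosis. CYCB1;1, a reporter of cells in G2 that is also known to respond to DNA damage, had 2.63, 1.95 and 2.84 FPKM in line 1, 5.09, 2.63 and 5 FPKM in line 2, and 6.41, 6.86 and 5.87 FPKM in trb123, against 2.53, 3.48 and 3.72 FPKM in WT. It was the only one of the 15 G2/M members called higher in trb123, at 0.81 (SE 0.19, adjusted p = 0.00243), and that call was lost with the split fitted (0.58, adjusted p = 0.225). CYCB1;2 had the highest level of the B-type cyclins over all libraries, with 7.82, 4.02 and 8.48 FPKM in line 1, 11.8, 8.41 and 16.2 FPKM in line 2, and 8.12, 7.17 and 7.23 FPKM in trb123, against 11.2, 10.2 and 12 FPKM in WT. Its libraries were below WT in line 1 (-0.7, SE 0.23, adjusted p = 0.0532) and in trb123 (-0.51, SE 0.23, adjusted p = 0.071), with no call. CYCB1;4 fell by 0.57 (SE 0.15, adjusted p = 0.022) in line 1. The other 5 B-type cyclins, CYCB1;3 and CYCB2;1 to CYCB2;4, changed by -0.46 to -0.13 in line 1, by -0.11 to 0.63 in line 2 and by -0.36 to 0.52 in trb123, with no call.

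Of the 5 CDK genes, CDKB2;2 and CDKB1;1 fell in line 1 and CDKA;1 rose in trb123. CDKB2;2 had 4.83, 2.83 and 5.42 FPKM in line 1, 7.58, 6.02 and 9.99 FPKM in line 2, and 7.12, 9.32 and 6.96 FPKM in trb123, against 7.25, 7.95 and 7.86 FPKM in WT. It fell by 0.73 (SE 0.19, adjusted p = 0.0224) in line 1 and changed by 0.01 in line 2 (adjusted p = 0.987) and in trb123 (adjusted p = 0.97). CDKB1;1 had 1.16, 1.35 and 2.47 FPKM in line 1, 2.17, 1.36 and 3.12 FPKM in line 2, and 4.7, 5.22 and 4.54 FPKM in trb123, against 2.76, 3.29 and 3.49 FPKM in WT. It fell by 0.68 (SE 0.2, adjusted p = 0.0334) in line 1, with -0.41 (adjusted p = 0.134) in line 2 and 0.48 (adjusted p = 0.0528) in trb123. CDKB1;2 and CDKB2;1 gave -0.45 and -0.62 in line 1, not called. CDKA;1, the kinase used throughout the cycle, had 23.3, 19.8 and 24.2 FPKM in line 1, 26.3, 25.03 and 29.95 FPKM in line 2, and 31.5, 30.2 and 28.3 FPKM in trb123, against 19.4, 24.5 and 25.2 FPKM in WT. It rose by 0.37 (SE 0.12, adjusted p = 0.0141) in trb123, a call lost without trb123 replicate 1 or WT replicate 1 and with the split fitted (0.21, adjusted p = 0.474). The split term also turned the trb123 values of CDKB1;1 to -0.14 (adjusted p = 0.756) and of CDKB2;2 to -0.43 (adjusted p = 0.348), and the line 2 value of CDKB2;2 to -0.44 (adjusted p = 0.603).

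CDC20.1 and KNOLLE, which act at the end of mitosis, fell in trb123 while most G2/M genes were not called. CDC20.1, an activator of the anaphase-promoting complex, had 10.95, 7.99 and 8.65 FPKM in line 1, 18.3, 10.3 and 19.8 FPKM in line 2, and 4.78, 5.17 and 5.86 FPKM in trb123, against 15.3, 13.7 and 17.7 FPKM in WT. It fell by 1.4 (SE 0.2, adjusted p = 6e-05) in trb123 and by 0.7 (SE 0.2, adjusted p = 0.0283) in line 1, and changed by 0 (adjusted p = 0.99) in line 2. Its close copy CDC20.2, with which reads can be shared, averaged 2.89 ± 0.73 FPKM in line 1, 4.56 ± 1.49 FPKM in line 2 and 4.89 ± 0.16 FPKM in trb123, against 4.8 ± 0.92 FPKM in WT (SD, n = 3 each). KNOLLE, the syntaxin of the cell plate, had 11.5, 7.81 and 14.1 FPKM in line 1, 17.1, 12.5 and 24.9 FPKM in line 2, and 8.97, 10.5 and 9.03 FPKM in trb123, against 18.5, 15.2 and 17.7 FPKM in WT. It fell by 0.79 (SE 0.22, adjusted p = 0.00736) in trb123, with -0.61 (adjusted p = 0.0694) in line 1 and 0.03 (adjusted p = 0.935) in line 2. With the term for the split the trb123 changes were -1.29 (adjusted p = 0.0193) for CDC20.1 and -1.31 (adjusted p = 0.0172) for KNOLLE. KNOLLE shares 33.5% of its exon bases with AT1G08550 on the opposite strand, which averaged 54.2 ± 13.8 FPKM in line 1, 44.1 ± 2.73 FPKM in line 2 and 19.8 ± 1.56 FPKM in trb123, against 50.9 ± 2.34 FPKM in WT (SD, n = 3 each), and its part in the fall was not tested.

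The 4 line 1 falls among G2/M genes rest on few libraries. The call of CDKB2;2 was lost without line 1 replicate 2 or any 1 WT replicate, that of CDKB1;1 without line 1 replicate 1 or 2 or any 1 WT replicate, that of CYCB1;4 without line 1 replicate 2 or WT replicate 1 or 3, and that of CDC20.1 without line 1 replicate 2 or 3 or WT replicate 1 or 3. Limma called 0 of the 15 without line 1 replicate 2, WT replicate 1 or WT replicate 3 (4 to 8 at an unadjusted p under 0.05), and 8 were lower without line 2 replicate 2 or 3. No share over all genes is given for these fits. Without line 1 replicate 3, the library on the other side of the split, 7 of the 15 were lower, beside 10% lower among all genes. The G2/M median was -0.56. Then CYCB1;2 fell by 0.87 (adjusted p = 0.0282), CDKB2;1 by 0.83 (adjusted p = 0.0135), KNOLLE by 0.79 (adjusted p = 0.0307) and CYCB2;3 by 0.56 (adjusted p = 0.0433). CDC20.1 was no longer called (-0.67, adjusted p = 0.0575). The term for the split, which in line 1 amounts to leaving out the same library, gave -0.67 for CDC20.1 (adjusted p = 0.0577) and is no separate check.

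RBR1 fell in line 1 and rose in trb123, where its call depends on the split. It had 5.63, 4.78 and 6.74 FPKM in line 1, 8.28, 7.64 and 8.43 FPKM in line 2, and 13.2, 13.99 and 13.4 FPKM in trb123, against 8.2, 9.3 and 9.7 FPKM in WT. Line 1 lay wholly below WT and trb123 wholly above. RBR1 fell by 0.59 (SE 0.11, adjusted p = 0.00397) in line 1 and rose by 0.53 (SE 0.11, adjusted p = 0.00112) in trb123, and changed by -0.14 (adjusted p = 0.353) in line 2. With the split fitted it was -0.7 in line 1 (adjusted p = 0.00118) and 0.21 in trb123 (adjusted p = 0.372). E2Fc, described as a repressing E2F, had 3.18, 2.98 and 3.07 FPKM in line 1, 2.66, 2.5 and 2.58 FPKM in line 2, and 4.84, 3.91 and 4.63 FPKM in trb123, against 3.74, 4.6 and 6.12 FPKM in WT. It fell by 0.49 (SE 0.13, adjusted p = 0.0224) in line 1 and by 0.68 (SE 0.13, adjusted p = 0.00268) in line 2, with -0.08 (adjusted p = 0.639) in trb123. The line 1 call was lost without line 1 replicate 2 or WT replicate 3. The line 2 call was lost with the split fitted, at an unchanged value (-0.68, adjusted p = 0.236). E2Fa, an activating E2F, fell by 0.38 (adjusted p = 0.0495) in line 1, a call lost without any 1 library other than line 1 replicate 1, under both other scalings and with the split fitted (-0.39, adjusted p = 0.0732). E2Fb was not called against WT.

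CDK inhibitors held the largest called change in trb123 (SMR1) and in line 2 (KRP1), but not in line 1. SMR1 had 118, 147 and 147 FPKM in line 1, 123, 134 and 107 FPKM in line 2, and 20.9, 27.7 and 21.3 FPKM in trb123, against 94.0, 92.9 and 95.3 FPKM in WT. All trb45 libraries were above WT and all trb123 libraries far below. SMR1 rose by 0.53 (SE 0.13, adjusted p = 0.0133) in line 1 and by 0.36 (SE 0.13, adjusted p = 0.049) in line 2, and fell by 1.98 (SE 0.13, adjusted p = 8.18e-08) in trb123. The fall was 2.13 with the term for the split (adjusted p = 4.48e-05). The line 2 call was lost without 1 of 7 libraries (line 2 replicates 1 and 2, trb123 replicates 1 and 3, every WT replicate), under median-ratio scaling and with the split fitted (0.2, adjusted p = 0.737). SIM, the founding member of this family, had 129, 141 and 128 FPKM in line 1, 107, 111 and 88.6 FPKM in line 2, and 92.3, 90.3 and 104 FPKM in trb123, against 126, 127 and 118 FPKM in WT. It fell by 0.37 (SE 0.1, adjusted p = 0.00615) in trb123, and changed by 0.1 (adjusted p = 0.514) in line 1 and -0.28 (adjusted p = 0.051) in line 2. The SIM call was lost with the split fitted (-0.29, adjusted p = 0.227). SMR1 shares 40.3% and SIM 31.4% of exon bases with a gene on the opposite strand that is listed for no group.

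KRP1 and KRP2 belong to the other inhibitor family. KRP1 had 13.4, 15.2 and 4.47 FPKM in line 1, 3.88, 4.6 and 3.8 FPKM in line 2, and 5.3, 4.99 and 5.74 FPKM in trb123, against 16.0, 15.4 and 16.8 FPKM in WT. It fell by 1.75 (SE 0.29, adjusted p = 0.00129) in line 2 and by 1.43 (SE 0.29, adjusted p = 0.000969) in trb123, with -0.66 (adjusted p = 0.131) in line 1. Line 1 replicate 3 lies with line 2 and trb123 and the other line 1 libraries near WT, which is the split itself, since KRP1 is one of the genes that define it. With the term its trb123 value was 0.05 (adjusted p = 0.857) and its line 2 value -0.27 (adjusted p = 0.53). KRP2 had 5.01, 8.66 and 3.54 FPKM in line 1, 3.1, 2.91 and 2.88 FPKM in line 2, and 6.27, 5.42 and 6.21 FPKM in trb123, against 5.22, 5.43 and 4.96 FPKM in WT. It fell by 0.65 (SE 0.2, adjusted p = 0.0264) in line 2, a call lost without any 1 line 2 or WT library, and turned to 0.1 (adjusted p = 0.907) with the term for the split. WEE1, a kinase of the replication checkpoint, rose by 0.47 (SE 0.14, adjusted p = 0.0112) in trb123, a call lost without WT replicate 2 and with the split fitted (0.28, adjusted p = 0.438).

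**Figure D4:**
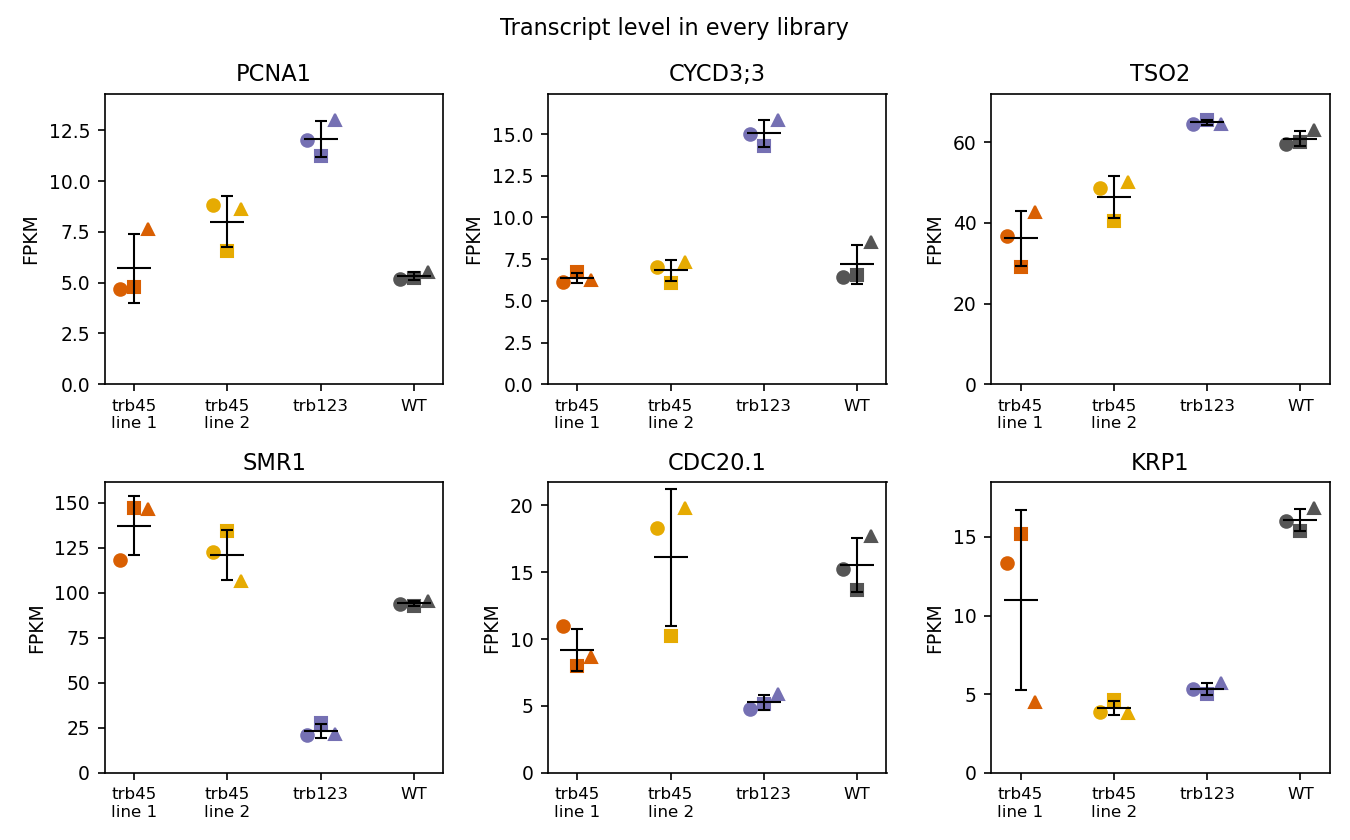
FPKM of 6 members in each library, with circles, squares and triangles for replicates 1, 2 and 3 and bars for the mean ± SD of 3. SMR1 lies at 20.9 to 27.7 FPKM in trb123, against 92.9 to 95.3 FPKM in WT. KRP1 in line 1 replicate 3 (4.47 FPKM) lies with line 2 and trb123.

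Set directly against trb123, the trb45 lines were lower at most members. The mean of both lines was higher at 4 and lower at 30 of 48 members (70.8% called, against 59.6% of all genes). Lower calls were 62.5% of members against 36.2% of all genes, and higher calls 8.33% against 23.4%. The median was -0.46, against -0.09 over all genes. Both lines lay wholly above trb123 at 2 members and wholly below at 24 (18.6% and 30.5% of all genes). Of the S-phase members 0 were higher and 12 of 14 lower (median -0.65), and of the G2/M members 2 were higher and 4 of 15 lower (median -0.24). The 4 higher were SMR1 (2.43, SE 0.11, adjusted p = 2.67e-09), CDC20.1 (1.05, SE 0.17, adjusted p = 0.000172), KNOLLE (0.5, SE 0.19, adjusted p = 0.0368) and SIM (0.28, SE 0.09, adjusted p = 0.013). The falls were largest for CYCD3;1 (-1.21, SE 0.19, adjusted p = 0.000113), RNR1 (-1.11, SE 0.13, adjusted p = 7.63e-06) and CYCD3;3 (-1.08, SE 0.1, adjusted p = 9.07e-07). Over all genes, median-ratio scaling gave 5455 higher and 5463 lower calls, against 4372 and 6778 in the main fit, and over the members 4 higher and 26 lower.

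Line 2 alone against trb123 stays within one side of the split, a comparison added after the data were seen. It called 4 members higher and 21 lower, with 51.7% of all genes called (21% higher, 30.6% lower). The S-phase median was -0.49, with 10 of 14 lower, and the G2/M median was 0.09, with 3 higher and 2 lower. RNR1 fell by 0.96 (SE 0.15, adjusted p = 0.00013), CYCD3;3 by 1.04 (SE 0.11, adjusted p = 6.92e-06), RBR1 by 0.67 (SE 0.11, adjusted p = 0.000233) and ORC2 by 0.66 (SE 0.1, adjusted p = 0.000185) relative to trb123. SMR1 was higher by 2.34 (SE 0.13, adjusted p = 2.26e-08), CDC20.1 by 1.4 (SE 0.2, adjusted p = 7.11e-05), KNOLLE by 0.82 (SE 0.22, adjusted p = 0.00707) and CYCB1;2 by 0.59 (SE 0.23, adjusted p = 0.0481). Over both lines, the term for the split gave 33 calls, 4 higher and 29 lower (56.4% of all genes called, 34.7% lower), of which 31 were the same genes in the same direction as the 34 without it.

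With that term, the comparisons with WT lost more. In trb123 7 members were called (28% of all genes), of which 5 were the same in the same direction: CDC6A and CYCD3;3 higher, and KNOLLE, CDC20.1 and SMR1 lower. CYCD2;1 (0.62, adjusted p = 0.0303) and KRP2 (0.91, adjusted p = 0.0199) were called higher with it only. In line 2 limma called 0 members with it (5 at an unadjusted p under 0.05), as it called 0.679% of all genes (0.433% higher). In line 1 it called 16 (17.6% of all genes), of which 11 were the same. Between the lines limma called 0 members with it (3 at an unadjusted p under 0.05) and 0.0267% of all genes (0.0107% higher, 0.016% lower). The term is estimated from line 1 alone, where 1 library stands against the other two.

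Between the lines, 0 members were higher and 2 lower in line 1 than in line 2, CDKB2;2 and RBR1 (4.17% of members, against 4.63% of all genes, 2.07% higher and 2.55% lower). Line 1 lay wholly above line 2 at 4 members and wholly below at 8 (8.07% and 17% of all genes). Medians were -0.34 over the S-phase members and -0.56 over the G2/M members, against -0.06 over all genes, and 0 of 15 G2/M members had a positive value. Without line 1 replicate 3 the count was 5 higher and 20 lower, against 27.7% of all genes called, and without line 2 replicate 2 it was 1 higher and 15 lower. Without any other single library limma called 0 (16 to 29 at an unadjusted p under 0.05). The direction also turned with scaling: median-ratio scaling gave 3 higher and 0 lower, KRP1 (1.14, SE 0.29, adjusted p = 0.0469), KRP2 (0.74, SE 0.2, adjusted p = 0.0495) and SIM (0.44, SE 0.11, adjusted p = 0.0423), and quantile scaling 2 higher and 1 lower. Over all genes, median-ratio scaling gave 576 higher and 274 lower, against 388 and 477 in the main fit.

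S-phase and G2/M genes were also divided by promoter letters. The 7 S-phase genes tested with E2F letters had a median of 0.66 in trb123, with 7 higher, and the 7 without had 0.57, with 4 higher and 1 lower. The 8 G2/M genes with the MSA core had a median of 0.03 and the 7 without 0.01 in trb123, and -0.44 and -0.62 in line 1. These are descriptions, with no test. CYCD3;3 and RBR1, which carry E2F letters outside the S-phase class, both rose in trb123 in the fit without the split term, from which these counts also come, and RBR1 was not called with it.

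Other genes of the same processes, from lists drawn up for this description, were compared with WT in trb123. Their values come from the fit without the term for the split, and none is given with it. That term lowered the calls in trb123 from 59.4% to 28% of all genes. Among all genes tested, 33.9% were called higher and 25.5% lower in trb123, 7.77% and 10.4% in line 1, and 14.9% and 15.6% in line 2. Of 14 further replication genes tested, 8 rose and 0 fell (median 0.38), among them SLD5 (0.78, SE 0.14, adjusted p = 0.00035), ORC3 (0.59, SE 0.12, adjusted p = 0.00102) and MCM10 (0.58, SE 0.14, adjusted p = 0.00338). In line 1 the same list gave 0 higher and 2 lower, and in line 2 1 higher and 0 lower. Of 14 further mitosis genes, 1 rose (TES, 0.3, adjusted p = 0.0446) and 2 fell in trb123, the spindle checkpoint genes BUBR1 (-0.93, SE 0.18, adjusted p = 0.000705) and MAD2 (-0.91, SE 0.19, adjusted p = 0.0011). Line 1 replicate 3, on the trb123 side of the split, was the lowest of its group for BUBR1 (3.72 FPKM) and MAD2 (4.69 FPKM). In line 1 this list gave 0 higher and 3 lower (median -0.4), and in line 2 0 higher and 2 lower. Of 5 histone H3.1 genes, whose products are laid down at replication, HTR13 rose (0.34, adjusted p = 0.0388) and HTR9 fell (-3.27, SE 0.18, adjusted p = 2.57e-08) in trb123. HTR9 averaged 22.7 ± 2.79 FPKM in line 1, 31.1 ± 7.57 FPKM in line 2 and 2.18 ± 0.27 FPKM in trb123, against 30 ± 6.72 FPKM in WT (SD, n = 3 each), though these genes are near copies that can share reads. Of 26 other regulators 7 rose and 3 fell in trb123, in each direction a smaller share than among all genes. They included KRP5 (0.91, adjusted p = 0.015), DPA (0.7, adjusted p = 3.92e-05) and CYCA3;4 (-0.79, adjusted p = 4.77e-05). In line 1 the H3.1 list gave 0 higher and 1 lower and the regulators 0 higher and 1 lower, and in line 2 the H3.1 list gave 0 higher and 1 lower and the regulators 2 higher and 1 lower.

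Lists for DNA damage and for cell types stood beside these changes, also from the fit without the term for the split. Among all genes tested, 33.9% were called higher and 25.5% lower in trb123, 7.77% and 10.4% in line 1, and 14.9% and 15.6% in line 2. Of 8 DNA damage response genes tested 5 rose and 0 fell in trb123, led by GMI1 (2.61, SE 0.1, adjusted p = 1.38e-09), PARP2 (1.05, adjusted p = 1.93e-06) and XRI1 (0.65, adjusted p = 0.000205). Summed levels of the list were 34.5 to 38.4 FPKM in trb123 and 15.9 to 17.2 FPKM in WT. These sums also hold SMR5 and SMR7, which are not listed for the trb45 lines and were not tested. SMR5 averaged 2.15 FPKM in trb123 and 1.24 FPKM in WT, and SMR7 1.48 and 0.26 FPKM. Of the shoot meristem markers 1 of 5 tested rose in trb123, STM (1.66, SE 0.14, adjusted p = 1.09e-06), with sums of 40.2 to 41.4 FPKM in trb123 and 36.1 to 46.6 FPKM in WT. Of the root meristem markers limma called 0 of 3 tested in trb123 (0 at an unadjusted p under 0.05). Sums over all 5, mostly SCR and SHR, were 57.4 to 66.2 FPKM in trb123 and 63.4 to 74.5 FPKM in WT. They were 37.4 to 59.9 FPKM in line 1 and 36.2 to 42.3 FPKM in line 2. WOX5 and PLT2 were too low to test. WOX5 had 0.95 to 1.93 FPKM in trb123, wholly above the 0.32 to 0.49 FPKM of WT, and PLT2 had 0.65 to 1.13 FPKM against 0.71 to 0.79 FPKM. Of the stomatal lineage markers, a lineage that divides in young leaves, 1 rose and 3 fell in trb123. MUTE rose, with a mean of 2.36 FPKM in trb123 against 1.39 FPKM in WT. Those that fell were SPCH (-1.23, adjusted p = 9.23e-05), FAMA (-0.97, adjusted p = 6.03e-05) and TMM (-0.64, adjusted p = 0.023). Sums over the whole stomatal list were 22.1 to 28.2 FPKM in line 1, 19.9 to 33.2 FPKM in line 2 and 18 to 22 FPKM in trb123, against 35.4 to 40 FPKM in WT. Of 4 leaf photosynthesis markers 0 rose and 2 fell in trb123, CAB3 (-0.76, adjusted p = 0.000252) and RCA (-0.28, adjusted p = 0.0326). The flower and seed markers PI (0.83, adjusted p = 0.000154) and SESA1 (3.7, SE 1.11, adjusted p = 0.0116) rose in trb123, and the list summed to 1.2 to 120 FPKM in line 1, 0.4 to 32.7 FPKM in line 2 and 27.2 to 42.5 FPKM in trb123, against 0.3 to 10.5 FPKM in WT. In line 1 these lists gave, as higher and lower, 2 and 1 of 8 for DNA damage, 0 and 1 of 5 for the shoot meristem, 0 and 1 of 3 for the root meristem, 0 and 1 of 4 for the stomatal lineage, 0 and 0 of 4 for leaf photosynthesis (2 at an unadjusted p under 0.05) and 0 and 0 of 3 for flower and seed (0 at an unadjusted p under 0.05). In line 2 they gave 2 and 0, 1 and 0, 0 and 2, 0 and 2, 2 and 0, and 0 and 0 (0 at an unadjusted p under 0.05), in the same order. WUS and CLV3 are not analysed here. AP1 is not listed for the trb45 lines and was not tested, but it enters the flower and seed sums of trb123 (0.46 to 0.73 FPKM) and WT (0 to 0.03 FPKM). The part of any of these cell types or of DNA damage in the changes of the members was not tested.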

How the data were processed

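Whole seedlings were sequenced as 12 polyA RNA libraries, 3 in each of 4 groups taken from the labels. The authors deposited FPKM values per gene and library, 1 table per group. In the line 1 table the deposited FPKM values are written with decimal commas (61165 cells), which were read as points. STAR 2.7.1, DESeq2 and the TAIR10 genome are named in the submitters' processing notes, while the counter, its use of strand, the annotation and the rule by which a gene was listed are not given in the sources used here. WT and trb123 list 21036 genes, line 1 20406 and line 2 20420, and the 20114 genes listed for every group were used. A gene missing from 1 table was not tested, though SMR5, SMR7 and AP1 enter the sums of trb123 and WT. Library depth was read from the steps of low FPKM values.

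One limma fit (limma 3.58.1, R 4.3.3, trend) of 4 group means to log2(FPKM + 1) covered the 18700 genes with at least 1 FPKM in at least 3 libraries, and p-values were adjusted by Benjamini-Hochberg over all of them. Comparisons were each mutant line with WT, the mean of the trb45 lines with trb123, and line 1 with line 2. A call is an adjusted p under 0.05. Described in full are, for each comparison with WT, up to 6 called members with the largest change and the most abundant member of each role, and of other lists up to 3 called genes with the largest change in trb123; CYCB1;1, TES, CYCB1;4, RNR1, ORC2 and further members named with values were chosen after their values were seen. The members and lists were chosen with earlier results of these data known. Same-numbered libraries correlated at r of -0.06 to 0.32, over 0.1 in 4 of 18 pairs. Between line 2 and WT, r was 0.32 for replicates 2 and 0.22 for replicates 3. Crossing these replicates gave -0.23 and -0.32. The labels name no pairing and the main fit used none, so whether replicate numbers pair some samples is not settled. Promoters came from the RefSeq TAIR10.1 genome, where 20020 of the listed IDs matched. Alternatives were other pseudocounts, filters, scalings, variance models and thresholds, a replicate block, a term for the split, and leaving out each library. Tables were handled with Python 3.11.15, pandas 2.3.3, numpy 2.4.6 and matplotlib 3.10.9, and the fit was tested on simulated data.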

Additional observations from a re-analysis of the deposited data

Results flagged for a closer look

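A direct test of the difference between the trb45 lines passed the threshold at 2 members, RBR1 and CDKB2;2. RBR1 averaged 5.72 ± 0.98 FPKM in line 1 and 8.12 ± 0.42 FPKM in line 2 (SD, n = 3 each), a difference of -0.45 on the log2(FPKM + 1) scale (SE 0.11, limma adjusted p = 0.0439). CDKB2;2 averaged 4.36 ± 1.36 FPKM in line 1 and 7.86 ± 2.0 FPKM in line 2 (SD, n = 3 each), a difference of -0.74 (SE 0.19, limma adjusted p = 0.0499). The 3 line 1 libraries lay below every line 2 library for both genes. Both calls were lost when 1 of 10 of the 12 libraries was left out, all but line 1 replicate 3 and line 2 replicate 2, and under median-ratio scaling, and CDKB2;2 also under quantile scaling.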

How the results depend on the processing

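Of the values of named members under the alternatives, 1325 kept direction and call, 90 lost the call, 45 gained one and 43 changed sign. With the term for the split the members called were 7 in trb123, 0 in line 2 (5 at an unadjusted p under 0.05) and 0 between the lines (3 likewise). The S-phase median was then 0.45 in trb123, -0.16 in line 2 and -0.09 between the lines, and the G2/M median -0.26 in line 2. Signs changed with it in trb123 for CDKB1;1 (-0.14), CDKB2;2 (-0.43), CYCD3;2 (0.09), KRP1 (0.05), ORC1B (0.41) and TSO2 (-0.28), in line 2 for CDKB2;2 (-0.44), CYCB1;2 (-0.44), KNOLLE (-0.5), KRP2 (0.1), PCNA1 (-0.1) and PCNA2 (-0.35), and in line 1 for MCM4 (-0.03) and PCNA1 (-0.14), and the cause was not tested. Line 2 alone against trb123 moved the S-phase median to -0.49 and the G2/M median to 0.09. Restricting to a mean of at least 5 FPKM, which tests fewer members, gave 8 calls in line 1, 21 for the trb45 lines against trb123 and 7 between the lines, with G2/M medians of -0.7 in line 1, -0.51 in trb123 and 0.2 for the trb45 lines against trb123. These medians cover only CYCB1;2, CDKB2;1, CDKB2;2, KNOLLE and CDC20.1, and KNOLLE and CDC20.1 are the G2/M members called lower in trb123. At an adjusted p under 0.01 there were 4 calls in line 1, 4 in line 2 and 0 between the lines. Between the lines, 1 member was called with a pseudocount of 0.1, with no filter and without trend, and limma called 0 with only the groups compared (23 at an unadjusted p under 0.05). With a replicate block, 18 members were called in line 1, 12 in line 2, 31 in trb123, 35 for the trb45 lines against trb123 and 14 between the lines. Whether replicate numbers pair the samples is not settled. Counts of members under a changed filter, threshold, block or set of libraries stand in this section without the share of all genes called. A change in such a count therefore cannot be told from a change in calls over all genes. Scaling turned the sign of CDKB2;2 in trb123 (-0.07 median-ratio, -0.05 quantile), CDKA;1 in line 1 (0.02 median-ratio) and TSO2 in trb123 (-0.02 quantile). Without 1 library, calls ranged from 5 to 17 in line 1, 4 to 13 in line 2, 23 to 30 in trb123, 27 to 37 for the trb45 lines against trb123 and 0 to 25 between the lines. S-phase medians ranged from -0.23 to -0.04, 0.06 to 0.27, 0.58 to 0.73, -0.72 to -0.59 and -0.47 to -0.19 in the same order, and G2/M medians from -0.6 to -0.37, -0.16 to 0.25, -0.05 to 0.08, -0.34 to -0.13 and -0.81 to -0.4. The line 1 count fell to 7 without line 1 replicate 2, 7 without WT replicate 1 and 5 without WT replicate 3, and the line 2 count to 4 without line 2 replicate 1, 4 without WT replicate 1, 5 without WT replicate 2 and 6 without WT replicate 3. Uncalled members whose sign turned without 1 library ranged in line 2 from -0.16 to 0.28 (CDC20.1), -0.16 to 0.16 (CDKB2;2), -0.31 to 0.05 (CDT1A), -0.14 to 0.29 (CYCB1;2), -0.4 to 0.08 (CYCD3;1), -0.12 to 0.06 (CYCD3;3) and -0.21 to 0.26 (KNOLLE). In line 1 they ranged from -0.14 to 0.05 (CDKA;1), -0.25 to 0.3 (KRP2), -0.03 to 0.22 (MCM4) and -0.14 to 0.16 (PCNA1), and in trb123 from -0.11 to 0.08 (CDKB2;2), -0.08 to 0.1 (CYCD3;2) and -0.21 to 0.08 (E2Fc). Depth per library limits ORC1A and CYCA2;1, which lie near or under 1 FPKM.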
